A study of Bos taurus with 6 samples.

Results

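Adenosine metabolism was followed through 5 genes, NT5E, ADA, ADK, PNP and SLC29A1, which were looked up by symbol in a count table of 12826 genes. All 5 were present and all 5 passed the filter on low counts. NT5E and ADA had been picked because they were lower after beta-hydroxybutyrate (BHB) in an earlier comparison of the same libraries within pairs (adjusted p = 0.000137 and 0.0150 in DESeq2's Wald test), and the other 3 were picked as partners by function. The difference of NT5E and ADA between BHB and control is therefore given as a description.

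The libraries hold RNA from pools of bovine (Bos taurus) blastocysts made in vitro and collected at day 7. Embryos of 3 libraries were treated with BHB, a ketone body made by the liver during fasting, and embryos of 3 control libraries without it. All came from slaughterhouse material. The sources used here give no dose, exposure time or number of embryos per pool, and do not say whether pools came from separate rounds of embryo production. The p-values therefore rest on the spread among 6 libraries, which may be technical.

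Adenosine outside the cell is made from released ATP. Ectonucleoside triphosphate diphosphohydrolases cut ATP and ADP to AMP, and 5'-nucleotidase (CD73, encoded by NT5E) on the outer membrane turns AMP into adenosine. Equilibrative transporters such as ENT1, encoded by SLC29A1, carry adenosine across the membrane. Inside the cell, adenosine kinase (ADK) returns it to AMP, while adenosine deaminase (ADA) turns it into inosine, which purine nucleoside phosphorylase (PNP) splits into hypoxanthine and a sugar phosphate. Adenosine also acts on its own receptors at the cell surface.

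Total counts were 6440732 to 7348949 in BHB libraries and 7925889 to 8176648 in control libraries. The authors' deposited results were matched by a refit in which BHB 1 was paired with control 1, BHB 2 with control 2 and BHB 3 with control 3. The labels do not state this pairing. Trophectoderm markers, which define the outer epithelium of the blastocyst, had 10 of 12 listed genes in the table, with summed levels of 9667 to 16455 CPM (counts scaled to a fixed library total after edgeR's TMM scaling) with BHB and 12558 to 19231 CPM in controls. Of the epiblast list 6 of 8 genes were in the table (601 to 726 CPM with BHB, 637 to 682 CPM in controls), and of the primitive endoderm list 6 of 8 (383 to 424 CPM with BHB, 310.3 to 433 CPM in controls). Of markers of cumulus and granulosa cells, which surround the oocyte, 4 of 14 were in the table (33.4 to 37.4 CPM with BHB, 34.4 to 40.9 CPM in controls), and of oocyte markers 2 of 10 (1.75 to 3.88 CPM with BHB, 3.87 to 5.88 CPM in controls). Of leukocyte markers 2 of 12 were in the table (6.42 to 8.03 CPM with BHB, 5.57 to 10.02 CPM in controls). Marker genes that were not in the table, among them SOX2 and the leukocyte antigen gene PTPRC, were not analysed here.

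NT5E, the enzyme that forms adenosine from AMP, was lower with BHB in 3 of 3 pairs, at 23.1%, 23.9% and 34.4% of the paired control. Of all tested genes, 15.7% were lower in 3 of 3 pairs. Its level was 2.96, 2.22 and 11.96 CPM in BHB libraries 1 to 3, against 12.8, 9.28 and 34.7 CPM in control libraries 1 to 3. Both libraries of pair 3 were the highest of their group, and BHB 3 lay above control 2, so the groups overlapped although each BHB library was below its own control. The counts were 22, 16 and 82 with BHB and 96, 70 and 296 in controls. The exact 95% Poisson interval, which covers counting error only, was 9.15 to 26.0 for the lowest BHB library and 54.6 to 88.4 for the lowest control.

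Averaged over groups, NT5E was at 5.71 ± 5.42 CPM with BHB and 18.95 ± 13.8 CPM in controls (SD, n = 3 each). The SD was close to the mean with BHB, and pair 3 stood apart from the others in both groups. The log2 fold change of BHB over control was -1.74 (SE 0.67) in edgeR without pairing and -1.85 (SE 0.24) with the pair as a block. Within pairs the difference in log2 CPM was -2.11, -2.07 and -1.54 (mean -1.91 ± 0.32, SD, n = 3). Without pairing, the fold change depended on pair 3, at -0.96 without control 3 and at -2.87 without BHB 3, both fits that keep the partner of the library left out.

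ADA, the deaminase that removes adenosine, was lower with BHB in 3 of 3 pairs, at 65.1%, 49.6% and 48.8% of the paired control. Its level was 29.6, 28.8 and 17.7 CPM in BHB libraries 1 to 3, against 45.5, 58.1 and 36.2 CPM in control libraries 1 to 3. Every BHB library was below every control, as in 3.78% of all tested genes, and pair 3 was the lowest in both groups. Group means were 25.4 ± 6.69 CPM with BHB and 46.6 ± 10.99 CPM in controls (SD, n = 3 each). The log2 fold change was -0.88 (SE 0.25) without pairing and -0.89 (SE 0.16) with the pair as a block, and the differences within pairs were -0.62, -1.01 and -1.03 in log2 CPM.

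By edgeR without pairing 0 of 12732 genes passed an adjusted p of 0.05 (0% called), with 347 genes at an unadjusted p under 0.05, and 0 of the 5 members passed (adjusted p = 0.999 for each). DESeq2's Wald test called 6 genes (0.0468%) and none of the 5. With the pair as a block, edgeR called 0 genes (1044 at an unadjusted p under 0.05), with an adjusted p of 0.0624 for NT5E and 0.183 for ADA. DESeq2 called 18 genes as lower (0.140%). NT5E and ADA were among them, which is how NT5E and ADA were picked. When 1 pair at a time was left out of this blocked DESeq2 test, ADA lost its call each time (adjusted p = 0.157, 0.999 and 0.324 without pair 1, 2 and 3), and NT5E had an adjusted p of 0.0493 without pair 2 while DESeq2 gave it no adjusted p without pair 1 or without pair 3.

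**Figure D1:**
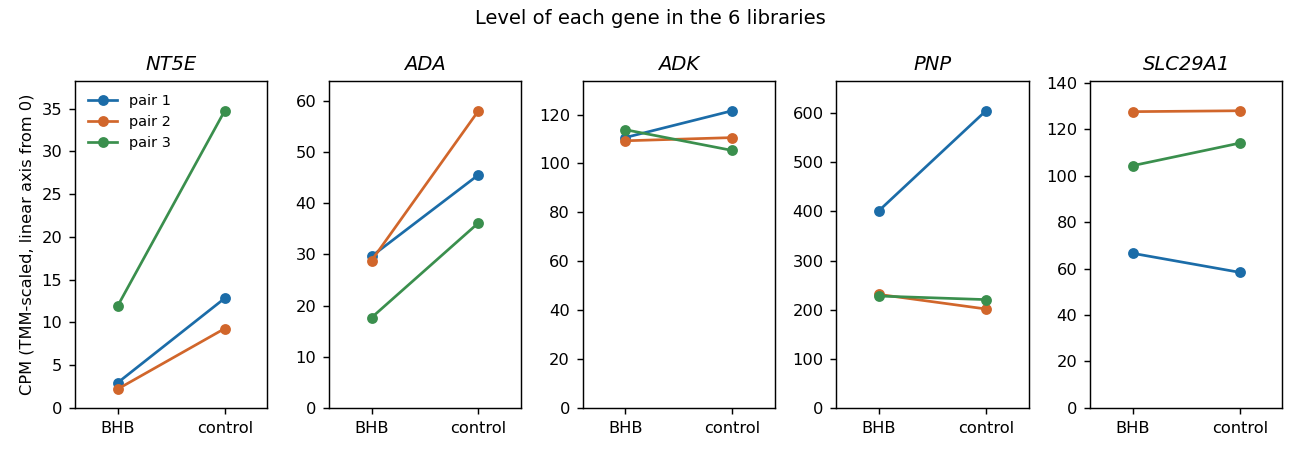
Level of each of the 5 genes in CPM (linear axis from 0, TMM-scaled) in the BHB libraries (left) and control libraries (right), with a line joining the libraries of a pair. The lines of NT5E and ADA run lower at BHB in 3 of 3 pairs, those of ADK are flat, and those of PNP and SLC29A1 are set apart by pair 1.

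ADK, the kinase that competes with ADA for adenosine, was at nearly the same level in all 6 libraries. It had 111, 109 and 114 CPM in BHB libraries 1 to 3, against 122, 111 and 105 CPM in control libraries 1 to 3. The groups overlapped, and their means were 111 ± 2.33 CPM with BHB and 112 ± 8.28 CPM in controls (SD, n = 3 each). The log2 fold change was -0.02 with a 95% interval of -0.30 to 0.27 without pairing, that is 0.813 to 1.20 times the control. The locus overlaps that of AP3M1, an adaptor protein subunit, in the RefSeq table of ARS-UCD2.0, and the strand setting of the counting is not given, so reads from the overlap may have been placed with either gene.

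Since ADA and ADK act on the same substrate, their counts were set against each other within each library, which needs no scaling between libraries. The ratio of ADA to ADK counts was 0.268, 0.264 and 0.155 in BHB libraries 1 to 3 and 0.375, 0.525 and 0.343 in control libraries 1 to 3. Every BHB library was below every control, with means of 0.229 ± 0.064 with BHB and 0.414 ± 0.097 in controls (SD, n = 3 each). ADA was picked for its lower level and ADK was nearly level, so this ratio restates the difference of ADA. The ratio of NT5E to ADA counts was 0.100, 0.0769 and 0.678 with BHB and 0.282, 0.160 and 0.961 in controls. It was lower with BHB in 3 of 3 pairs, and pair 3 was again far above the other 2 in both groups. NT5E and ADA were both picked for their lower level, so their ratio is a description too. These ratios compare libraries and say nothing of which gene has more transcripts, since counts are not divided by transcript length.

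PNP, which acts downstream of ADA, differed between pairs and not in 1 direction with BHB. Its level was 402, 231 and 228 CPM in BHB libraries 1 to 3, against 605, 201 and 220.5 CPM in control libraries 1 to 3. Both libraries of pair 1 were far above the other 4, and the groups overlapped, with means of 287 ± 99.6 CPM with BHB and 342 ± 228 CPM in controls (SD, n = 3 each). Within pairs the difference in log2 CPM was -0.59, 0.20 and 0.05. The log2 fold change was -0.25 (95% interval -1.17 to 0.66) without pairing and -0.12 (95% interval -0.44 to 0.20) with the pair as a block, and its sign turned to 0.45 without control 1. The PNP locus overlaps that of RNASE10, a gene of the ribonuclease family at 1.33 ± 0.67 CPM with BHB and 0.88 ± 0.65 CPM in controls (SD, n = 3 each).

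SLC29A1, the transporter that lets adenosine cross the membrane, also differed between pairs. Its level was 66.5, 128 and 104 CPM in BHB libraries 1 to 3, against 58.4, 128 and 114 CPM in control libraries 1 to 3. Both libraries of pair 1 were the lowest, and the groups overlapped, with means of 99.5 ± 30.8 CPM with BHB and 100.1 ± 36.8 CPM in controls (SD, n = 3 each). The log2 fold change was -0.01 (95% interval -0.70 to 0.68) without pairing and 0.02 (95% interval -0.25 to 0.28) with the pair as a block. The sign differed between these fits, and the value was smaller than its SE in both.

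**Figure D2:**
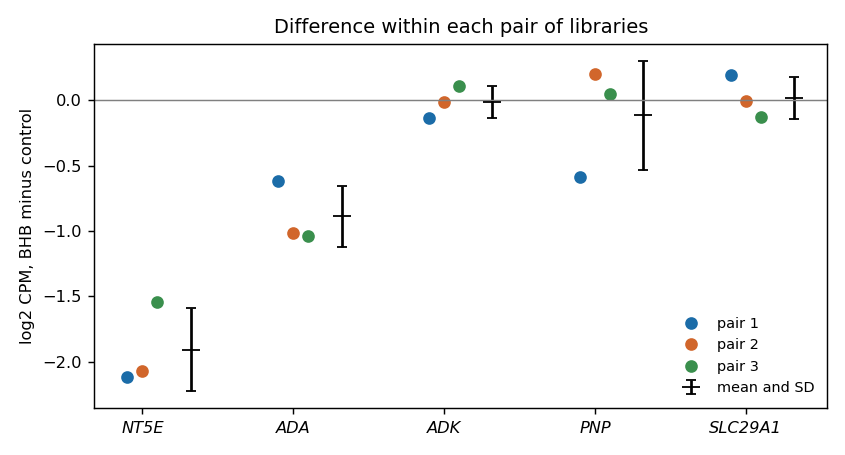
Difference in log2 CPM (BHB minus control) within each of the 3 pairs of libraries, one point per pair, with the mean and SD over pairs at the right of each gene. NT5E lies between -2.11 and -1.54 and ADA between -1.03 and -0.62, while the points of ADK, PNP and SLC29A1 lie on both sides of 0.

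The difference between pairs was tested with treatment kept in the model, a contrast that was not used to choose the members. edgeR's quasi-likelihood test called 524 of 12732 genes (4.12%) and 3 of the 5 members. These were NT5E (adjusted p = 0.00706), PNP (adjusted p = 0.00725) and SLC29A1 (adjusted p = 0.0104), while ADA (adjusted p = 0.130) and ADK (adjusted p = 0.888) did not pass. The mean level in pairs 1, 2 and 3 was 7.89, 5.75 and 23.4 CPM for NT5E. It was 503, 216 and 224 CPM for PNP and 62.5, 128 and 109 CPM for SLC29A1. In each of these genes 1 pair carried the call. PNP and SLC29A1 lost it without pair 1 (adjusted p = 0.860 and 0.437), where the test called only 63 of all genes. NT5E lost it without pair 3 (adjusted p = 0.578), where the test called 514 of all genes.

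The share of variance in log2 CPM that lay between pairs was 49.0% for NT5E, 30.0% for ADA, 35.3% for ADK, 90.3% for PNP and 97.8% for SLC29A1. Treatment held 50.2% for NT5E and 66.9% for ADA, against 1.19% for ADK, 0.993% for PNP and 0.0436% for SLC29A1. These shares describe 6 libraries and were not tested. Noise alone gives each term a share, and a larger one to pair, which has more levels than treatment. ADA and ADK did not pass edgeR's test between pairs. The treatment shares of NT5E and ADA come from the values that picked them. NT5E had a large share on both sides, since it was lower with BHB in each pair and also higher in pair 3 than in the others.

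An adjusted p under 0.05 was given to 646 of 12826 genes (5.04%) in the authors' deposited table, and 4 of the 5 members were among them. Its adjusted p was 4.68e-10 for NT5E, 0.000758 for ADA, 2.3e-09 for PNP, 4.15e-05 for SLC29A1 and 0.998 for ADK. Those p-values were matched by a test of pair and treatment together against neither, so they do not refer to BHB alone. In the authors' deposited table, the log2 fold change of control over BHB was 0.12 (SE 0.16) for PNP and -0.01 (SE 0.15) for SLC29A1. In refits with DESeq2, the test of treatment within pairs gave both genes an adjusted p of 1.00, and the likelihood ratio test of pair gave 2.12e-09 for PNP and 1.63e-05 for SLC29A1. That test called 662 genes (5.16%), with NT5E at 1.42e-05 and ADA at 0.222.

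**Figure D3:**
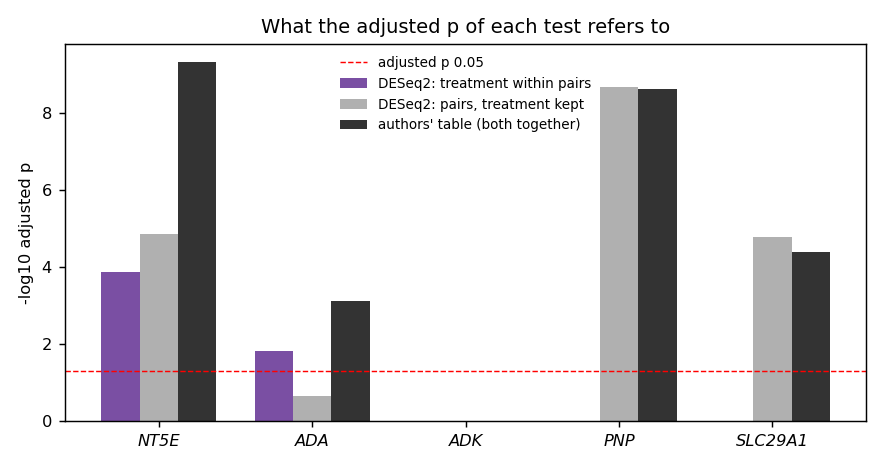
Bars show -log10 of the adjusted p of each gene in DESeq2's Wald test of treatment within pairs, in DESeq2's likelihood ratio test of the pairs with treatment kept, and in the authors' deposited table, with a dashed line at 0.05. PNP and SLC29A1 pass in the second and the third and not in the first, ADA passes in the first and the third, NT5E passes in all 3 and ADK in none.

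NT5E is also a surface marker of mesenchymal stromal cells, so stromal genes were set beside it. Of the 12 listed stromal markers 10 were in the table, and their summed level was 2989 to 3623 CPM with BHB and 3038 to 3637 CPM in controls. Fibronectin (FN1), which embryos also make, took 94.2% to 96.9% of that sum. The remaining 9 markers summed to 139, 120.2 and 92.9 CPM in BHB libraries 1 to 3, against 176, 115 and 182 CPM in control libraries 1 to 3. In log2 CPM their sum differed by -0.34 in pair 1, 0.06 in pair 2 and -0.97 in pair 3, beside -2.11, -2.07 and -1.54 for NT5E. In pair 1 a single gene, COL5A2, held 35.4 of the 139 CPM with BHB and 82.3 of the 176 CPM in the control. Of the 10 markers 3 were lower and 1 was higher with BHB in 3 of 3 pairs, beside 15.7% and 14.5% of all tested genes. The stromal genes COL6A3 and PDGFRB were not analysed here. COL5A2, a fibrillar collagen chain, had 35.4, 0.415 and 16.3 CPM in BHB libraries 1 to 3, against 82.3, 2.12 and 37.9 CPM in control libraries 1 to 3. The intermediate filament gene VIM had 4.04, 7.06 and 5.69 CPM with BHB, against 10.6, 8.88 and 22.9 CPM in controls. COL5A2 and VIM were thus lower with BHB in 3 of 3 pairs. COL5A2, COL3A1 and VIM were named with earlier results of these data known, so their differences with BHB are a description. COL5A2 passed the blocked DESeq2 test that had picked NT5E (adjusted p = 0.00214, log2 fold change -1.33) and edgeR's test between pairs (adjusted p = 9.28e-05). VIM passed neither (adjusted p = 0.245 and 0.340). In both groups COL5A2 was highest in pair 1, whereas NT5E was highest in pair 3. Pair 2 of COL5A2 rested on 3 counts with BHB and 16 in the control. COL3A1, another fibrillar collagen, went the other way in 3 of 3 pairs, with 2.42, 8.03 and 6.71 CPM with BHB and 1.34, 4.37 and 2.35 CPM in controls. COL3A1 passed neither the blocked DESeq2 test (adjusted p = 0.891) nor edgeR's test between pairs (adjusted p = 0.107).

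The summed trophectoderm markers were lower with BHB in 3 of 3 pairs, by -0.22, -0.33 and -0.38 in log2 CPM, beside -0.62, -1.01 and -1.03 for ADA. The keratin gene KRT8 took 57.0% to 63.9% of that sum, and without it the differences were -0.063, -0.14 and -0.39. Of the 10 markers 3 were lower and 3 higher with BHB in 3 of 3 pairs, beside 15.7% and 14.5% of all tested genes. The part of either marker list in the difference of NT5E or ADA was not tested. In pooled embryos, fewer cells of a type and less RNA per cell cannot be told apart.

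Genes whose centred log2 CPM was most like each member over the 6 libraries were found among 11827 genes by the root mean square difference. For NT5E they were IFI44 and HERC6, both interferon-induced genes, and LOC100139670, with differences of 0.53, 0.53 and 0.54, against an SD of 1.29 of NT5E itself. The resemblance was thus loose. IFI44 was at 2.22 ± 1.17 CPM with BHB and 6.66 ± 3.21 CPM in controls (SD, n = 3 each). HERC6 was at 3.56 ± 2.74 CPM with BHB and 7.57 ± 4.33 CPM in controls (SD, n = 3 each). Both were sought for likeness to NT5E, so their lower level with BHB follows from the search. Neither passed the blocked DESeq2 test (adjusted p = 0.339 for IFI44 and 0.664 for HERC6).

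For ADA they were ACAD11, an acyl-CoA dehydrogenase, ACY1, an aminoacylase, and VAV1, a guanine nucleotide exchange factor, with differences of 0.11, 0.15 and 0.17 against an SD of 0.54 of ADA. ACAD11 was at 20.7 ± 5.54 CPM with BHB and 35.7 ± 7.51 CPM in controls (SD, n = 3 each). Its lower level follows from its likeness to ADA, and it did not pass the blocked DESeq2 test (adjusted p = 0.0981). The nearest genes to PNP were LOC786614, PORCN and the thioredoxin gene TXN (0.08, 0.14 and 0.14). Those nearest to SLC29A1 were GLI3, ZNF512 and the receptor kinase gene KIT (0.07, 0.07 and 0.08). Those nearest to ADK were the mitochondrial genes TIMM23 and HSPE1 and the reductase gene SRD5A3 (0.02, 0.03 and 0.03).

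The wider pathway was described by 6 lists of 87 genes written from general knowledge. Of these 62 were in the table and 61 were tested, 56 of them besides the members. No list gene passed edgeR's test without pairing (0% of all genes passed). In the blocked DESeq2 test 2 passed, both lower, NT5E and ADA themselves, and 0 of the other genes passed in either direction (0.273% of all genes). DESeq2 gave no adjusted p to 2487 of all genes in this fit, so these could not pass. Some list genes were among them, such as ENTPD1 and AK8. In the 56 tested genes that are no members, the median log2 fold change was -0.014 without pairing, beside -0.005 over all tested genes, and 53.6% were negative beside 50.9%. Lower values in 3 of 3 pairs were found in 9 of the 56, close to the share of all tested genes. At an unadjusted p under 0.05 without pairing there were 0 of these 56 genes in edgeR and 0 of 57 in DESeq2, and with the pair as a block 3 in edgeR (8.20% of all tested genes) and 1 in DESeq2 (595 genes in all, 4.64%).

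Of 18 tested genes in the list on ATP and AMP breakdown to adenosine, 11 were negative (61.1%, beside 50.9% of all tested genes, median -0.06). NT5E, picked for its lower level, was 1 of these and the most negative. ENTPD7, an intracellular nucleotidase, was at 3.90 ± 0.34 CPM with BHB and 5.59 ± 1.65 CPM in controls, and ENTPD6, a secreted form, at 17.6 ± 3.67 CPM with BHB and 21.8 ± 4.10 CPM in controls (SD, n = 3 each). ENTPD5, which acts in the endoplasmic reticulum, was at 20.2 ± 0.53 CPM with BHB and 16.8 ± 2.28 CPM in controls, with groups that did not overlap. Groups that did not overlap and were higher with BHB were found in 2 of the 56 list genes, ENTPD5 and IMPDH1, and in 4.06% of all tested genes. PANX1, a channel that releases ATP, was at 23.1 ± 4.44 CPM with BHB and 27.6 ± 2.79 CPM in controls. ENTPD1 (CD39), which supplies AMP to NT5E, was at 3.401 ± 0.218 CPM with BHB and 3.84 ± 0.39 CPM in controls, and it is named here after its values were seen. None of these differences passed.

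Of 16 tested genes of adenosine removal and purine salvage, 10 were negative (62.5%, beside 50.9% of all tested genes, median -0.04). ADA, picked for its lower level, was 1 of these. ADAL, a deaminase of modified AMP, was at 23.7 ± 2.22 CPM with BHB and 30.5 ± 4.18 CPM in controls (log2 fold change -0.36, SE 0.18), with groups that did not overlap. Groups that did not overlap and were lower with BHB were found in 1 of the 56 list genes, ADAL, and in 3.78% of all tested genes. DPP4, a membrane peptidase that holds ADA at the surface of human cells, was at 21.4 ± 7.06 CPM with BHB and 29.6 ± 11.8 CPM in controls (-0.46, SE 0.32). DGUOK, the mitochondrial deoxyguanosine kinase, had a log2 fold change of -0.27 (SE 0.16). HPRT1, which salvages the hypoxanthine that PNP makes, was at 230.2 ± 22.0 CPM with BHB and 194 ± 27.8 CPM in controls (0.25, SE 0.15). It was higher in 3 of 3 pairs, as were 7 of the 56 list genes and 14.5% of all tested genes. None of these passed.

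The other nucleoside transporters did not pass either. SLC29A2, the second equilibrative transporter, was at 26.9 ± 6.32 CPM with BHB and 33.7 ± 5.36 CPM in controls, lower in 3 of 3 pairs, and SLC29A3, found in lysosomes, at 42.3 ± 7.71 CPM with BHB and 44.2 ± 10.3 CPM in controls (SD, n = 3 each). The sodium-coupled transporters SLC28A3 and SLC28A2 differed in log2 by -0.33 (SE 0.31) and by 0.37 (SE 0.47). Of 16 listed purine receptors 3 were in the table, the ATP receptors P2RX4 (-0.14, SE 0.35) and P2RX5 (0.05, SE 0.33) and the nucleotide receptor P2RY2 (-0.21, SE 0.39). The adenosine receptors were not analysed here.

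In purine synthesis, 6 of 11 tested genes were negative (median -0.08). PRPS1, which makes the ribose donor of the pathway, was at 136 ± 37.6 CPM with BHB and 102 ± 11.9 CPM in controls (0.41, SE 0.21), and IMPDH1, of the guanine branch, at 4.97 ± 1.03 CPM with BHB and 3.25 ± 0.65 CPM in controls (0.61, SE 0.35). The groups of IMPDH1 did not overlap, at the share over all genes given for ENTPD5. For GMPS of the same branch it was -0.24 (SE 0.18), and for GART, which acts early in ring synthesis, 0.18 (SE 0.16). Of 8 adenylate kinases, which balance ATP, ADP and AMP, 2 were negative (median 0.19). Values were 0.23 (SE 0.15) in log2 for AK4, 0.14 (SE 0.15) for AK6, 0.58 (SE 0.45) for AK7 and 0.58 (SE 0.53) for AK8. None of the genes of these lists passed.

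**Figure D4:**
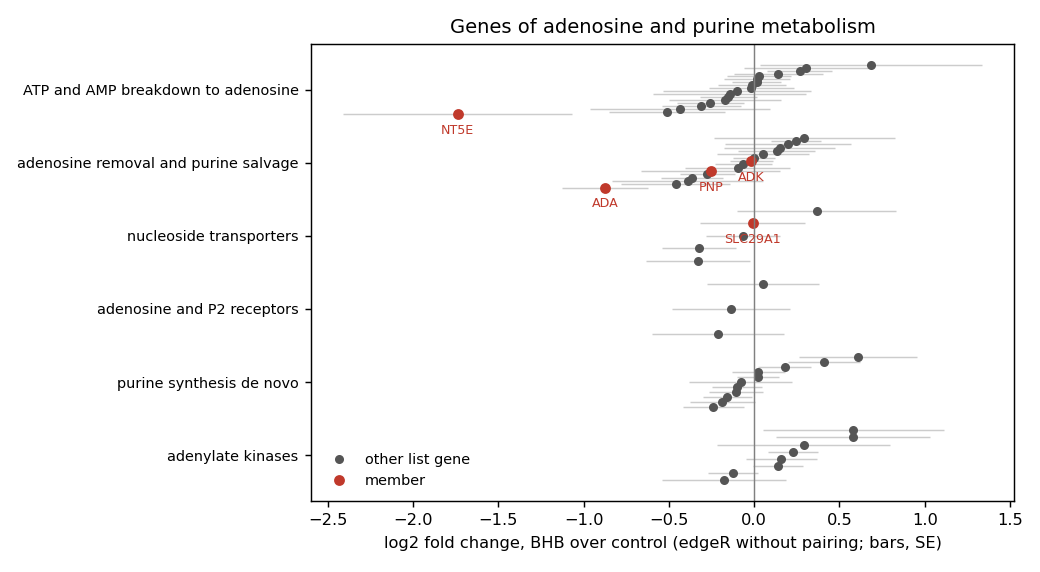
Log2 fold change of BHB over control (edgeR without pairing, bars show the SE) of the 61 tested genes in 6 lists of adenosine and purine metabolism, members in red. NT5E at -1.74 and ADA at -0.88, both picked for being lower with BHB, lie furthest to the left. The median of the 56 genes that are no members is -0.01.

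Between pairs, 5 of the 56 list genes besides the members were called (8.93%, beside 4.12% of all tested genes). Without pair 1 the test called 63 genes, of which NT5E was the only list gene, so 0 of the 56 kept a call. The 5 genes are named here after their values were seen. XDH, the xanthine oxidoreductase that turns hypoxanthine into uric acid, averaged 4.09 CPM in pair 1, 13.8 CPM in pair 2 and 12.8 CPM in pair 3 (adjusted p = 0.0243 in edgeR). DCK, the deoxycytidine kinase, averaged 24.1, 44.6 and 49.7 CPM in pairs 1, 2 and 3 (adjusted p = 0.0237 in edgeR), and AHCYL2, a homologue of the enzyme that frees adenosine from S-adenosylhomocysteine, 77.3, 154 and 137 CPM (adjusted p = 0.0141 in edgeR). P2RX4 was highest in pair 1, as PNP was, at 94.2, 64.5 and 42.1 CPM (adjusted p = 0.0140 in edgeR). PFAS, of purine synthesis, averaged 78.4, 155 and 104 CPM in pairs 1, 2 and 3 (adjusted p = 0.0226 in edgeR). XDH, DCK, AHCYL2 and PFAS were thus lowest in pair 1, as SLC29A1 was.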

How the data were processed

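Polyadenylated RNA of 6 libraries was made with a stranded kit and sequenced in 1 lane, per the labels' protocols. The authors deposited raw counts per gene, and a table of results. Per the file headers, that table has a mean signal (normalized count) for each gene, the log2 fold change of control over BHB with its error, a score (the test statistic), and the p-value before and after adjustment. STAR, featureCounts and DESeq2 were used, per the submitters' processing notes. Versions, genome build and strand setting are not stated there. The smallest total of any deposited gene was 38 counts, so rarer genes were not analysed here. Symbols were matched to the RefSeq table of ARS-UCD2.0 for names and overlapping loci. Coordinates are left out, since the build of the counts is unknown.

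Columns were matched to samples by the labels, and replicate numbers follow the order of deposit. edgeR 4.0.16 (R 4.3.3) used TMM scaling, filterByExpr (12732 genes kept, 94 removed), a quasi-likelihood F test and Benjamini-Hochberg adjustment over all genes at 0.05. DESeq2 1.42.0 and limma 3.58.1 (voom) were alternatives. Log2 CPM used a prior count of 2. The fits were tested on simulated data.

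The pairing came from DESeq2's likelihood ratio test of pair and treatment against neither, which matched the authors' deposited p-value to 1e-06 in 100% of genes when libraries with the same number were paired. The other 5 pairings matched 0 to 0.398%. Deviations of paired libraries from their group means correlated over genes at 0.46, 0.32 and 0.33.

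Members and lists were chosen with earlier results of these data known. The named genes are the 5 members, up to 4 genes of each list with the smallest p, the 3 genes most like each member whose mean log2 CPM is 1 or more, and COL5A2, COL3A1 and VIM. Other named genes were chosen after their values were seen. Alternatives covered scaling, filter, test, pairing and each library or pair left out. No sequences are shown.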

Additional observations from a re-analysis of the deposited data

How the results depend on the processing

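The log2 fold changes of NT5E and ADA were negative under every alternative run, with replicate block and without. Leaving out 1 library or pair moved NT5E over -2.87 to -0.96, ADA over -1.03 to -0.67, ADK over -0.079 to 0.047, PNP over -0.58 to 0.45 and SLC29A1 over -0.28 to 0.21. DESeq2 called 35 genes with replicate block, 2 of them in the lists (NT5E at -1.87, ADA at -0.89), and 6 without it. Leaving out 1 library or pair gave 0 to 16 called genes, 0 to 1 of them in the lists. The fits with replicate block that leave out a pair were added after seeing the data. ADK turned to 0.054 with library size alone, where the median of all genes was 0.06. SLC29A1 turned to 0.050 with that scaling, to 0.014 with limma-voom, to 0.015 in edgeR with replicate block and to 0.011 in DESeq2 with replicate block. Between pairs, leaving out 1 pair gave 63 to 737 called genes, 1 to 9 of them in the lists. The cause of these changes was not tested. NT5E had 16 to 82 counts with BHB, which limits its precision.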
